A study of Mus musculus with 4 samples.

Results

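*Scx*, *Mkx*, *Six2* and *Tnmd* are 4 genes that mark and shape tendon, and they were picked by name from the 23284 genes whose reads were counted in Osr1+ limb cells. *Scx*, *Mkx* and *Six2* encode transcription factors and *Tnmd* encodes a membrane protein of tendon cells. The cells came from limbs of C57BL/6J mouse embryos at E13.5 (embryonic day) and were isolated by FACS as live, GFP+ cells. The *Osr1* GCE allele is a knock-in of eGFP-IRES-CreERt2 at the *Osr1* locus, so that GFP reports cells in which this locus is active. The 2 heterozygous (GCE/+) samples had 1 GCE allele beside 1 intact *Osr1* allele, and the 2 homozygous (GCE/GCE) samples had no intact allele. Each sample was 1 embryo. Every sample thus carried the GCE allele and had been selected on its GFP, and no wild-type cells were among the groups. Homozygous embryos die before birth. In bulk samples of this kind, fewer cells of a type and less RNA per cell cannot be told apart.

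Tendons of the limb arise from lateral plate mesoderm, next to the muscle connective tissue (MCT) and the cartilage anlagen. *Scx* (scleraxis), a basic helix-loop-helix (bHLH) factor, is the earliest widely used marker of tendon progenitors. *Mkx* (mohawk), a homeobox factor of the TALE class, is needed for the growth of collagen fibrils in tendon. *Six2*, a homeobox factor of the sine oculis family, is expressed in connective tissue along developing limb tendons and is best known from kidney progenitors. *Tnmd* (tenomodulin), a type II membrane glycoprotein with a BRICHOS domain, marks tendon cells that have begun to differentiate.

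The start regions of *Tnmd* and *Six2* are printed because both genes rose in homozygous cells while their base composition stands far apart. The sequences are from RefSeq on GRCm38.p6 and hold the 250 bases before the annotated start, 5′ to 3′ on the strand of the gene. Capitals mark CG dinucleotides. That of *Tnmd* lies at chrX:133850758-133851007 on the plus strand and that of *Six2* at chr17:85688255-85688504 on the minus strand.
Tnmd: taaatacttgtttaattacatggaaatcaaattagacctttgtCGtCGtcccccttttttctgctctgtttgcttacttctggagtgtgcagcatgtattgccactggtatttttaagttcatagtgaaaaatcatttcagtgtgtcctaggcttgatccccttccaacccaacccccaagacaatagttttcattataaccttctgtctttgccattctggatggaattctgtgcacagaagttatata
Six2: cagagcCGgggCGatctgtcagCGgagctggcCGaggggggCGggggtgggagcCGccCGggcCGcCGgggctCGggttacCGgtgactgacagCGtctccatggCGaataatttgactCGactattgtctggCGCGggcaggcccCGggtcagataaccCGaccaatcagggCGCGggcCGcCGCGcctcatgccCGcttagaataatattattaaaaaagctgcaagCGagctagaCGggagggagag
The *Tnmd* window had 2 CG dinucleotides and 38.4% G or C, and 71.0% of the 32851 windows of the same length in the table had more CG dinucleotides. The *Six2* window had 26 and 64.8%, and 8.56% of windows had more. The median window had 6 CG dinucleotides and 52.4% G or C. Letters of the E-box, CANNTG, which bHLH factors such as *Scx* bind, were searched on both strands and matched neither window, while 66.2% of all windows held a match. The letters CAGTAGC, the core of the site described for the odd-skipped family, were also searched on both strands and matched neither window, against 3.03% of all windows. The absence of these letters says nothing of binding elsewhere at the genes.

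Total counts per sample ran from 52121596 to 61402140, and 3 counts amounted to 0.0489 to 0.0576 CPM (counts scaled to library size), far below the levels of the 4 genes. *Osr1* itself had 81.9 and 79.1 CPM in GCE/+ replicates 1 and 2 and 11.9 and 13.9 CPM in GCE/GCE replicates 1 and 2, which fits the labels. GCE/GCE replicate 1 alone had high *Xist*, at 1142 CPM against 0.572 to 2.63 CPM, and had 4 Y-linked genes at 0.172 CPM or less. Connective tissue markers such as *Pdgfra*, *Col1a1* and *Prrx1* summed to 10795 to 13535 CPM. Of these 8 markers, 0 passed the test between genotypes in edgeR. Their log2 fold changes were negative for 7 and positive for 1, with a median of -0.14. The 2 at an unadjusted p under 0.05, named after their values were seen, were *Dcn* at -0.68 and *Tcf7l2* at -0.30. Only *Dcn* was past the threshold in DESeq2. Among 15645 genes with enough counts to be tested, 279 passed the quasi-likelihood test of edgeR at a Benjamini-Hochberg adjusted p of 0.1. These are 1.78% of the genes tested, with 0.888% higher and 0.895% lower in homozygous cells.

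All 4 tendon genes had both GCE/GCE samples above both GCE/+ samples, and 3 of them, *Mkx*, *Tnmd* and *Six2*, passed the test. Of all genes tested, 19.2% had both GCE/GCE samples above both GCE/+ samples and 19.1% had them below. The 4 genes were chosen with earlier results of these data known. The study had reported *Scx*, *Mkx* and *Tnmd* as higher in homozygous cells from these same samples. The shared direction of the 4 genes is thus not independent evidence. *Tnmd* rose most, by 4.18-fold, *Mkx* rose 2.13-fold and *Six2* rose 1.58-fold. *Scx* had an estimated fold of 1.60 but did not pass.

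**Figure D1:**
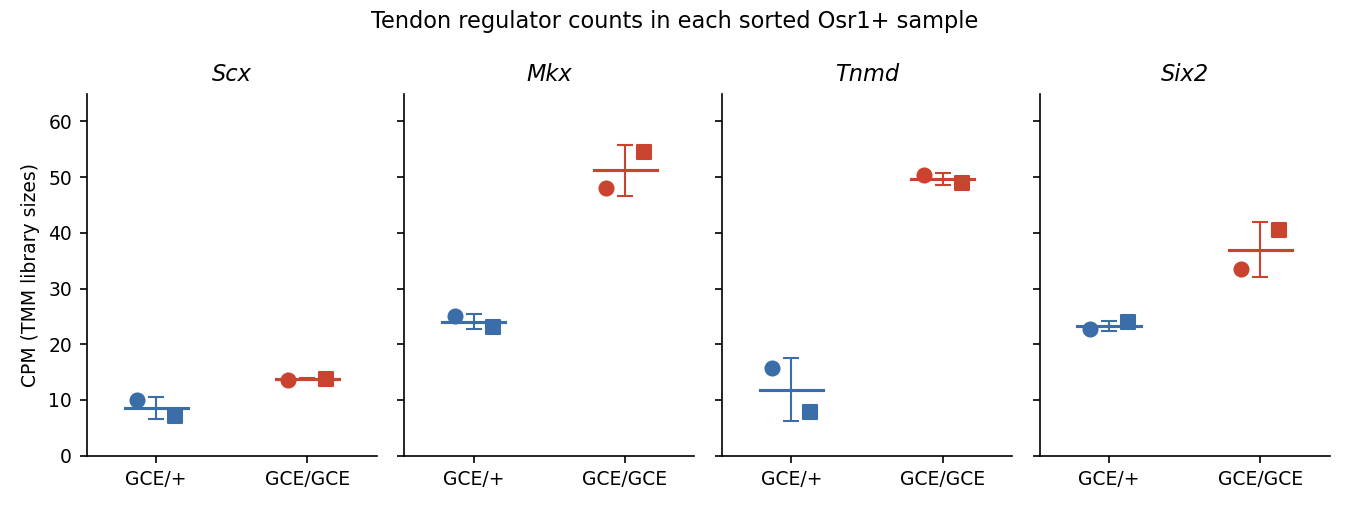
CPM of *Scx*, *Mkx*, *Tnmd* and *Six2* (vertical axis, linear) in each sample, with GCE/+ in blue and GCE/GCE in red, circles for replicate 1 and squares for replicate 2. Horizontal lines are group means and bars are SD (n = 2). Both red points lie above both blue points for each gene, and the GCE/+ points of *Tnmd*, at 15.8 and 7.88 CPM, lie farthest apart relative to their mean.

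*Scx* had 9.99 and 7.10 CPM in heterozygous cells, from 608 and 371 counts, and 13.6 and 13.8 CPM in homozygous cells, from 790 and 846 counts. The means were 8.54 ± 2.04 and 13.7 ± 0.150 CPM (SD, n = 2 each). The GCE/GCE embryos were nearly equal, while GCE/+ replicate 1 had 1.41 times the level of replicate 2. A larger difference between the GCE/+ replicates was seen in 5.49% of tested genes with at least 1 CPM. The log2 fold change was 0.68 (SE 0.17, 95% interval 0.30 to 1.06), with an edgeR adjusted p = 0.125. By unadjusted p *Scx* ranked 398 among the genes tested. In DESeq2, the tool named in the methods of the study, it passed with adjusted p = 0.0193, and 3.25% of genes tested passed there, 1.65% higher. Across 12 alternatives the estimate stayed between 0.46 and 0.94 and *Scx* passed in 6 of them. Without GCE/+ replicate 1 it was 0.94 (edgeR adjusted p = 0.0347), and without GCE/+ replicate 2 it was 0.46 (edgeR adjusted p = 0.111).

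The *Scx* locus, on chromosome 15, lies wholly within *Bop1*, a gene for ribosome biogenesis on the opposite strand, and their exons do not overlap. The library kit does not keep the strand, so that reads from unspliced *Bop1* RNA across *Scx* exons and reads from *Scx* cannot be told apart. *Bop1* had 43.5 and 40.9 CPM in heterozygous and 43.5 and 44.1 CPM in homozygous cells. Its log2 fold change was 0.05 (SE 0.09).

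*Mkx*, on chromosome 18, had 25.0 and 23.2 CPM in heterozygous and 48.0 and 54.4 CPM in homozygous cells. The means were 24.1 ± 1.30 and 51.2 ± 4.57 CPM (SD, n = 2 each). Replicates of *Mkx* were close in both groups, and the gap between genotypes was several times the spread. The log2 fold change was 1.09 (SE 0.11, 95% interval 0.84 to 1.33), with an edgeR adjusted p = 0.0107. *Mkx* ranked 8 by unadjusted p among all genes tested, and 40 by fold change among the genes that passed and were higher. It passed in all of the 12 alternatives, with estimates from 0.99 to 1.17. A non-coding transcript, AC148004.2, overlaps *Mkx* exons on the same strand in the GRCm38 annotation and was not analysed here.

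*Six2* had 22.7 and 24.0 CPM in heterozygous and 33.5 and 40.4 CPM in homozygous cells. The means were 23.3 ± 0.932 and 37.0 ± 4.95 CPM (SD, n = 2 each). The GCE/+ embryos were nearly equal here, and GCE/GCE replicate 2 had 1.21 times the level of replicate 1. The log2 fold change was 0.66 (SE 0.12, 95% interval 0.39 to 0.94), with an edgeR adjusted p = 0.0535. *Six2* ranked 132 by unadjusted p. Its estimate was as large as that of *Scx*, and its replicates in heterozygous cells were closer. The call was lost without GCE/+ replicate 1 (log2 fold change 0.62, edgeR adjusted p = 0.145) and at an adjusted p of 0.05.

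*Tnmd* had 15.8 and 7.88 CPM in heterozygous cells, from 963 and 412 counts, and 50.4 and 48.9 CPM in homozygous cells, from 2923 and 2995 counts. The means were 11.8 ± 5.61 and 49.6 ± 1.01 CPM (SD, n = 2 each). Like *Scx*, it was higher in GCE/+ replicate 1 than in replicate 2, here 2.01 times, and nearly equal in the GCE/GCE embryos. Only 0.661% of tested genes with at least 1 CPM had a larger difference between the GCE/+ replicates. Even so, the higher GCE/+ sample lay well below the lower GCE/GCE sample. The log2 fold change was 2.06 (SE 0.26, 95% interval 1.46 to 2.66), with an edgeR adjusted p = 0.0220. It was the fifth largest rise among genes that passed. *Tnmd* passed in all of the 12 alternatives, from 1.65 without GCE/+ replicate 2 to 2.65 without GCE/+ replicate 1. The gene is on chromosome X, and without GCE/GCE replicate 1, the sample with high *Xist*, its log2 fold change was 2.04.

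Levels of different genes were compared as CPM per kb of transcript. In GCE/+ cells, *Six2* stood at 11.0, *Tnmd* at 8.76, *Scx* at 8.25 and *Mkx* at 6.60 CPM per kb. *Six2* and *Tnmd* overlapped over their samples, as did *Tnmd* and *Scx*, and *Tnmd* and *Mkx*. The lower *Scx* sample, at 6.86, was next to the higher *Mkx* sample, at 6.85 CPM per kb. In GCE/GCE cells, *Tnmd* led with 36.7, and *Six2* had 17.4, *Mkx* 14.0 and *Scx* 13.3 CPM per kb. *Tnmd* was then above the 3 transcription factor genes in both samples, *Six2* was above *Mkx* and *Scx*, and *Mkx* and *Scx* overlapped. Of all genes tested, 79.7% had a lower mean level per kb over the 4 samples than *Tnmd*, 69.0% than *Six2*, 61.6% than *Scx* and 60.7% than *Mkx*.

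Ratios of CPM within a sample set the 4 genes against each other, and since CPM are not corrected for length, only the change of a ratio between samples is read. *Tnmd* had 1.58 and 1.11 times the CPM of *Scx* in heterozygous and 3.70 and 3.54 times in homozygous cells. Against *Mkx*, *Tnmd* went from 0.633 and 0.340 to 1.05 and 0.899. *Mkx* had 1.10 and 0.966 times the CPM of *Six2* in heterozygous and 1.43 and 1.35 times in homozygous cells. These 3 ratios were higher in both GCE/GCE samples. The ratio of *Mkx* to *Scx* was 2.50 and 3.26 in heterozygous and 3.53 and 3.94 in homozygous cells, also without overlap. By contrast, *Six2* had 2.27 and 3.38 times the CPM of *Scx* in heterozygous and 2.46 and 2.93 times in homozygous cells, and the groups overlapped. The ratios are given as values and were not tested.

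The pattern of each gene over the 4 samples was compared with that of 13469 genes whose mean reached 1 CPM, as the Euclidean distance between log2 CPM values centred on their mean. *Sspn*, which encodes sarcospan, was nearest to *Scx* at a distance of 0.0256, with 12.8 and 9.05 CPM in heterozygous and 17.7 and 17.6 CPM in homozygous cells. *Lrrtm2* and *Tmem150c* followed at 0.114 and 0.116. Nearest to *Mkx* were *Rxfp3*, a relaxin-3 receptor gene, at 0.0757, then *Sema3e* at 0.147 and *Lrrn3* at 0.171. *St8sia1*, *Stxbp6* and *Pdgfc*, the last a growth factor gene, were within 0.0634 to 0.0664 of *Six2*. No gene was that close to *Tnmd*. Its nearest were *Fam20a* at 0.628, with 2.36 and 1.30 CPM in heterozygous and 5.13 and 5.02 CPM in homozygous cells, then *Tlr1* at 0.801 and *Lbp* at 0.834. Among the 4 tendon genes, *Scx*, *Mkx* and *Six2* were 0.446 to 0.482 from each other and *Tnmd* was 1.25 to 1.70 from them. Many other genes lay closer. By distance from *Scx*, *Six2* ranked 219 and *Mkx* 311 among the genes compared. From *Mkx*, *Six2* ranked 71 and *Scx* 85, and from *Six2*, *Scx* ranked 698 and *Mkx* 747. From *Tnmd*, *Mkx* ranked 22, *Scx* 65 and *Six2* 165. In the reverse direction, *Tnmd* ranked 11237 from *Mkx*, 13167 from *Scx* and 13326 from *Six2*. These distances rest on 4 samples. The values were centred but not scaled, so that a distance reflects the size of a change as well as its shape. The larger rise of *Tnmd* thus adds to its distances, which do not show that its pattern differs in shape.

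The lists of related genes below were compared with the whole table by their counts and medians. Over the 15645 genes tested, the median log2 fold change was 0.0032 and 1.78% passed. The 7 lists of relatives and of other tendon genes together held 104 genes that were tested, of which 9 passed, 8 of them higher and 1 lower in homozygous cells. DESeq2 called 19 of them, 11 higher and 8 lower, so that the split by direction was more even there. The lists were drawn up with earlier results of these samples known, and several matrix genes, *Fmod*, *Tnc* and *Cilp* included, had been displayed by the study from these same samples, so that their direction is not independent evidence.

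**Figure D2:**
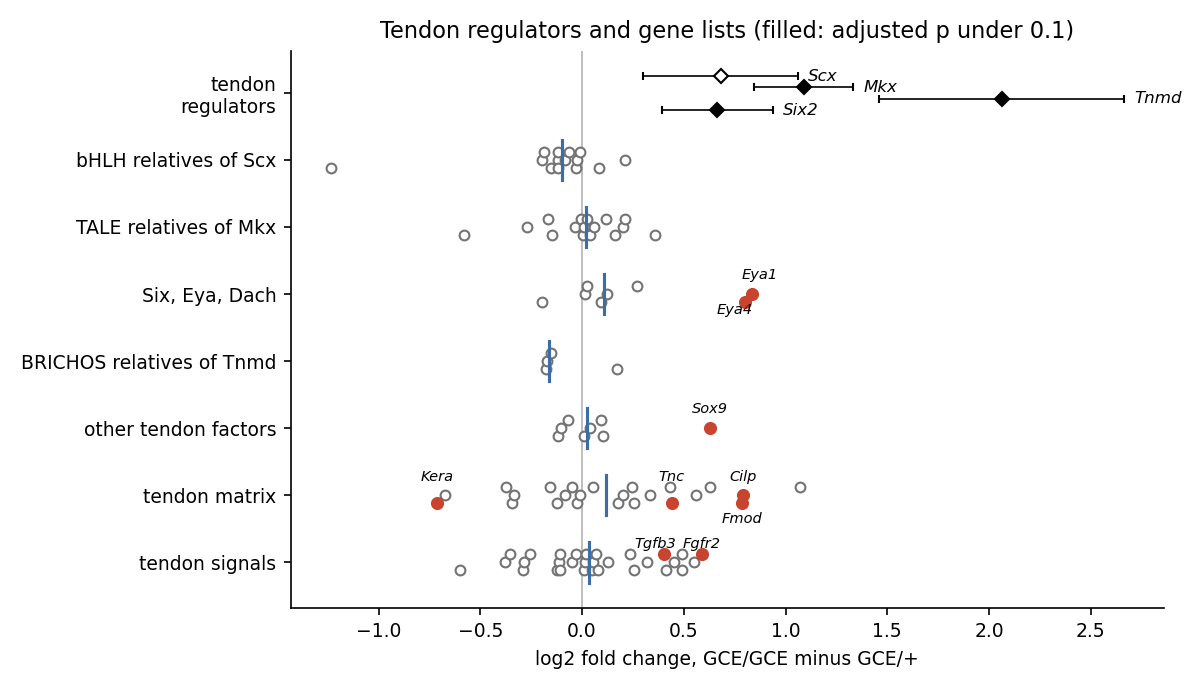
Log2 fold change, GCE/GCE minus GCE/+ (horizontal axis), of the 4 tendon regulators with 95% intervals (diamonds) and of each tested gene of 7 lists (circles). Filled symbols passed an adjusted p of 0.1 in edgeR, and blue ticks are list medians. *Tnmd* and *Mkx* lie to the right of every gene that passed in the lists, while the list medians lie between -0.16 and 0.12.

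The protein of *Six2* and its relatives act with EYA proteins, which are co-activators with phosphatase activity, and with DACH proteins, which are co-repressors. Of 8 listed genes of this network other than *Six2* that were tested, 2 rose and 0 fell in edgeR and in DESeq2, and the median log2 fold change was 0.11. *Eya1* had 13.9 and 12.5 CPM in heterozygous and 25.1 and 22.1 CPM in homozygous cells, a log2 fold change of 0.83 (SE 0.12, edgeR adjusted p = 0.0288). *Eya4* had 24.3 and 34.9 CPM in heterozygous and 48.0 and 55.0 CPM in homozygous cells, a log2 fold change of 0.80 (SE 0.16, edgeR adjusted p = 0.0789). Both *Eya* genes were apart between genotypes, and *Eya4* no longer passed without GCE/+ replicate 1 (edgeR adjusted p = 0.1001).

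*Six4* and *Six5* had log2 fold changes of 0.27 and 0.01 and overlapping groups. That of *Six4* was 0.05 without GCE/+ replicate 1 and 0.51 without GCE/+ replicate 2, where it passed (edgeR adjusted p = 0.0829). *Eya2* and *Eya3* were at 0.02 and 0.09, and *Dach1* and *Dach2* at -0.20 and 0.12, and none of these 4 passed. *Six3* and *Six6*, known from the eye and forebrain, had at most 1 count in any sample. Per kb, the highest of the listed genes were *Eya3* at 18.2, *Six5* at 17.2 and *Eya4* at 6.96 CPM per kb.

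Genes of this network are active in muscle progenitors as well as in connective tissue. Skeletal muscle markers summed to 202 and 228 CPM in heterozygous and 260 and 233 CPM in homozygous cells. Of the 13, 0 passed in edgeR and 1 passed in DESeq2. Log2 fold changes were positive for 10 and negative for 3, with a median of 0.20. The 4 markers with an unadjusted p under 0.05 were all higher in homozygous cells. Both GCE/GCE samples lay above both GCE/+ samples for 7 markers and below for 0, against 19.2% and 19.1% of all genes tested. *Pax7*, which defines muscle progenitors, had 2.66 to 4.39 CPM, and *Myod1* had 8.15 to 9.77 CPM. The part of muscle cells in the *Eya1*, *Eya4* and *Six2* values was not tested.

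**Figure D3:**
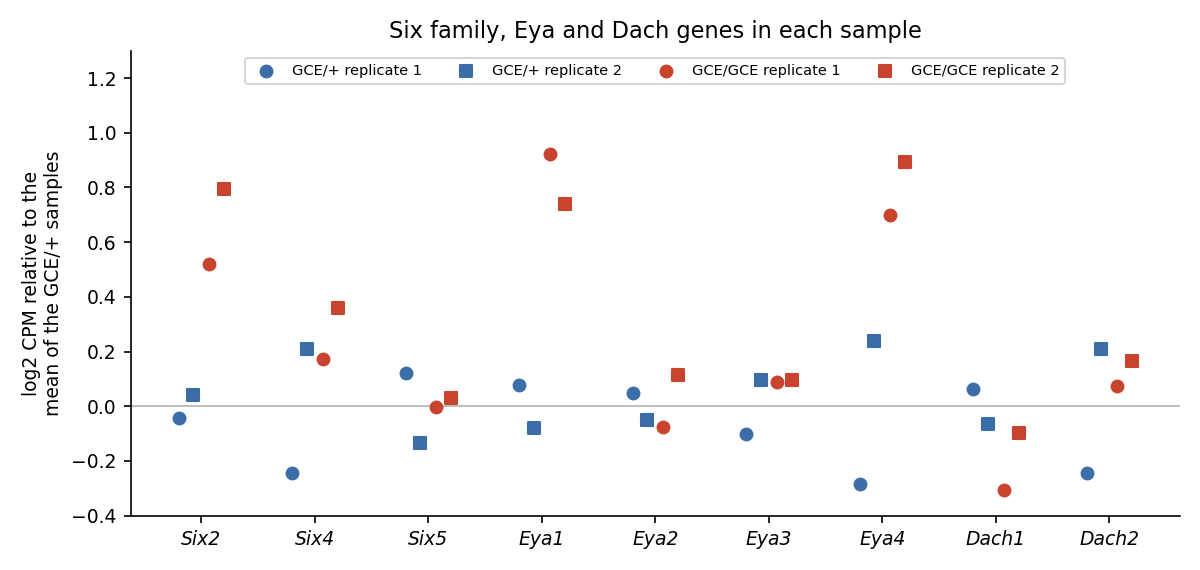
Log2 CPM relative to the mean of the 2 GCE/+ samples (vertical axis) for *Six2* and 8 tested genes of its family and of the EYA and DACH families, with 1 point per sample. Both GCE/GCE samples (red) lie above both GCE/+ samples (blue) for *Six2*, *Eya1* and *Eya4*, and not for *Six4*, *Six5*, *Eya2*, *Eya3* or *Dach2*. *Dach1* has both red points below.

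Of 14 bHLH relatives and partners of *Scx* tested, 0 passed in edgeR or in DESeq2, 1 had an unadjusted p under 0.05, and the median log2 fold change was -0.10. *Tcf15* (paraxis), the closest relative of *Scx*, had 2.71 and 2.39 CPM in heterozygous and 2.50 and 2.21 CPM in homozygous cells, a log2 fold change of -0.12 (SE 0.21). E proteins, with which *Scx* forms dimers, ranged from -0.02 for *Tcf3* to 0.21 for *Tcf4*. *Id3*, *Id2* and *Id1*, which encode inhibitors that capture E proteins, had the highest levels of the list, at 246, 155 and 149 CPM per kb. Their log2 fold changes were -0.06, -0.09 and -0.15. The gene with the unadjusted p under 0.05 was *Tcf21*, a marker of other mesenchyme, with 0.641 and 0.994 CPM in heterozygous and 0.345 and 0.343 CPM in homozygous cells (edgeR adjusted p = 0.193), and it was chosen after its values were seen.

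Among 16 tested TALE homeobox relatives of *Mkx*, 0 passed in edgeR, 1 passed in DESeq2 and 2 had an unadjusted p under 0.05, with a median log2 fold change of 0.02. The 5 tested *Irx* genes, the nearest group to *Mkx* by sequence, lay between -0.27 and 0.21. *Meis2*, *Tgif2* and *Pbx2* were highest, at 42.3, 36.9 and 35.3 CPM per kb, with log2 fold changes of 0.01, 0.00 and 0.04. The 2 genes with an unadjusted p under 0.05, named after their values were seen, were *Meis3*, the gene that DESeq2 called, at -0.58 (SE 0.13, edgeR adjusted p = 0.110) and *Pknox2* at 0.36 (SE 0.15, edgeR adjusted p = 0.428).

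*Tnmd* shares the BRICHOS domain with a small set of membrane and secreted proteins. Only 4 of the 8 such genes analysed here had enough counts to be tested, and 0 of the 4 passed in edgeR or in DESeq2, with 0 at an unadjusted p under 0.05. *Lect1*, which encodes chondromodulin, the nearest relative of tenomodulin and a cartilage protein, had 32.7 and 28.2 CPM in heterozygous and 34.0 and 34.7 CPM in homozygous cells. Its log2 fold change was 0.17 (SE 0.11, edgeR adjusted p = 0.708), against 2.06 for *Tnmd*. *Itm2a*, *Itm2c* and *Itm2b* were the highest, at 434, 109 and 101 CPM per kb, with log2 fold changes of -0.18, -0.15 and -0.17. *Gkn2*, a gene of the stomach lining, had 0 counts in every sample, which allows up to 0.0489 to 0.0576 CPM, and *Gkn1*, *Gkn3* and *Sftpc* were near 0.

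Of 8 other transcription factor genes studied in tendon, 1 rose, and the median log2 fold change was 0.02. *Sox9*, which is present in *Scx*+ progenitors where tendon joins bone and is also the main factor of cartilage, had 78.3 and 98.7 CPM in heterozygous and 130.0 and 144 CPM in homozygous cells. Its log2 fold change was 0.63 (SE 0.12, edgeR adjusted p = 0.0590). *Egr1*, *Egr2* and *Nfatc4*, highest in this list at 342, 54.0 and 41.7 CPM per kb, had 0.04, -0.12 and 0.09 and did not pass. *Egr1*, an early response gene, differed between replicates of both genotypes, with 1706 and 1321 CPM in heterozygous and 1839.5 and 1269 CPM in homozygous cells.

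Genes for the matrix of tendon moved in both directions. Of 24 tested, 3 rose and 1 fell in edgeR, while DESeq2 called 6 higher and 4 lower. The median log2 fold change was 0.12, and 13 of 24 had an unadjusted p under 0.05, against 10.5% of all genes tested. Of the 8 collagen genes 0 passed in edgeR, 4 had an unadjusted p under 0.05, and DESeq2 called *Col24a1* higher and *Col3a1* lower. The fibrillar chains with the highest levels, *Col3a1*, *Col1a2* and *Col1a1* at 1478, 931 and 543 CPM per kb, had log2 fold changes of -0.33, -0.12 and -0.16. Of 6 leucine-rich proteoglycan genes, 1 rose and 1 fell in edgeR, and DESeq2 called 1 higher and 3 lower. *Fmod* (fibromodulin), which regulates collagen fibril assembly in tendon, had 52.6 and 43.6 CPM in heterozygous and 88.5 and 77.7 CPM in homozygous cells, a log2 fold change of 0.79 (SE 0.11, edgeR adjusted p = 0.0268). *Kera* (keratocan), best known from the cornea, had 117 and 104 CPM in heterozygous and 64.1 and 71.0 CPM in homozygous cells, a log2 fold change of -0.71 (SE 0.09, edgeR adjusted p = 0.0220). The additional lower calls of DESeq2 were *Dcn* (decorin) and *Lum* (lumican), small proteoglycans that bind collagen fibrils, named after their values were seen. *Dcn* had 517 and 375 CPM in heterozygous and 316 and 242 CPM in homozygous cells (edgeR adjusted p = 0.142), and *Lum* had 481 and 402 against 346 and 350.3 CPM (edgeR adjusted p = 0.261).

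The other matrix genes that rose in edgeR were *Tnc* and *Cilp*, and DESeq2 also called *Comp* and *Aqp1* higher. *Tnc* (tenascin-C), abundant in tendon and perichondrium, had 340 and 351 CPM in heterozygous and 479 and 458 CPM in homozygous cells, a log2 fold change of 0.44 (SE 0.09, edgeR adjusted p = 0.0833). *Cilp*, a matrix gene named for cartilage intermediate layer protein, had 5.70 and 4.38 CPM in heterozygous and 9.23 and 8.22 CPM in homozygous cells, a log2 fold change of 0.79 (SE 0.17, edgeR adjusted p = 0.0930). *Fmod* and *Kera* passed in all of 12 fits, *Cilp* in 10 and *Tnc* in 8. *Tnc* no longer passed without GCE/+ replicate 1, without GCE/GCE replicate 1 or without GCE/GCE replicate 2.

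Transforming growth factor β (TGFβ) and fibroblast growth factor (FGF) signals induce and maintain *Scx* in limb tendon progenitors. Among 30 tested genes of these and related pathways, 2 rose and 0 fell in edgeR, DESeq2 called 2 higher and 3 lower, the median log2 fold change was 0.04, and 11 had an unadjusted p under 0.05. *Tgfb3*, which encodes a TGFβ ligand made in tendon, had 117 and 119 CPM in heterozygous and 158 and 153 CPM in homozygous cells, a log2 fold change of 0.40 (SE 0.08, edgeR adjusted p = 0.0712). *Fgfr2*, an FGF receptor gene active in cartilage condensations and perichondrium, had 70.4 and 83.8 CPM in heterozygous and 114 and 118 CPM in homozygous cells, a log2 fold change of 0.59 (SE 0.10, edgeR adjusted p = 0.0388). *Fgfr2* passed in 12 of 12 fits and *Tgfb3* in 8, and *Tgfb3* was lost without GCE/+ replicate 1 and without either GCE/GCE replicate.

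By role, 1 of 10 ligands, 1 of 7 receptors and 0 of 3 Smad effectors passed in edgeR. Of the ligands, 7 had an unadjusted p under 0.05, and DESeq2 called 1 higher and 2 lower, the latter *Tgfb1* and *Bmp4*. Of the receptors, 2 had an unadjusted p under 0.05, and DESeq2 called 1 higher and 1 lower, the latter *Tgfbr3*. In edgeR these 3 genes had log2 fold changes of -0.60, -0.38 and -0.35 and did not pass, and they were named after their values were seen. Of the 9 targets or feedback inhibitors of these pathways, 0 passed in edgeR. Neither the effectors nor the targets had a call in DESeq2, and each group had 1 gene at an unadjusted p under 0.05. Log2 fold changes of the targets lay between -0.28 and 0.23. *Spry2* and *Spry1*, FGF feedback inhibitors, and the receptor gene *Fgfr1* had the highest levels, at 87.6, 66.7 and 72.7 CPM per kb, with log2 fold changes of 0.01, -0.11 and 0.05.

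Markers of other cell types that the sort could hold were summed in each sample. Cartilage markers summed to 729 and 1145 CPM in heterozygous and 1590 and 1751 CPM in homozygous cells, with 12 of 12 higher in both GCE/GCE samples, 5 of them past the threshold, and a median log2 fold change of 0.96. *Col2a1*, which defines cartilage, had 359 and 571 CPM in heterozygous and 790 and 879 CPM in homozygous cells. It did not pass (edgeR adjusted p = 0.106). DESeq2 called 4 of the 12 markers higher, and *Col2a1* was not among them. *Sox9* is on this list too. Cartilage markers thus moved with genotype in the same direction as the 4 tendon genes. Between the GCE/+ embryos, the cartilage sum was higher in replicate 2. *Scx* and *Tnmd* were higher in replicate 1. *Six2*, at 22.7 and 24.0 CPM in replicates 1 and 2, and *Mkx*, at 25.0 and 23.2 CPM, differed little. A larger difference between the GCE/+ replicates than that of *Six2* was seen in 69.1% of tested genes with at least 1 CPM. For *Mkx* this share was 59.1%. The part of cartilage cells in the rise of the tendon genes was not tested.

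Macrophage markers summed to 339 and 339 CPM in heterozygous and 209 and 149 CPM in homozygous cells. Their median log2 fold change was -1.02. In both GCE/GCE samples 12 of 12 were lower, against 19.1% of all genes tested. In edgeR 10 passed as lower, against 0.895% of all genes tested. Endothelial markers summed to 141 and 113 CPM in heterozygous and 111 and 92.6 CPM in homozygous cells. Of the 10, 0 passed in edgeR and 1 passed in DESeq2. Log2 fold changes were negative for 9 and positive for 1, with a median of -0.44. The 6 at an unadjusted p under 0.05 were all lower in homozygous cells, against 10.5% of all genes tested at that p in either direction. Markers of epidermis summed to 15.8 to 18.4 CPM and those of glia to 19.5 to 24.1 CPM, with 0 of 7 and 0 of 6 past the threshold in edgeR or DESeq2 and 3 and 0 at an unadjusted p under 0.05. Erythroid markers summed to 158 to 463 CPM, most of it from *Hbb-y* at 152 to 449 CPM, and *Hba-a1* had 0 counts in every sample. The highest and lowest erythroid sums were both in heterozygous cells. The connective tissue sum was 13535 and 12143 CPM in heterozygous and 12529 and 10795 CPM in homozygous cells. The part of these cell types in the values of the tendon genes was not tested.

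**Figure D4:**
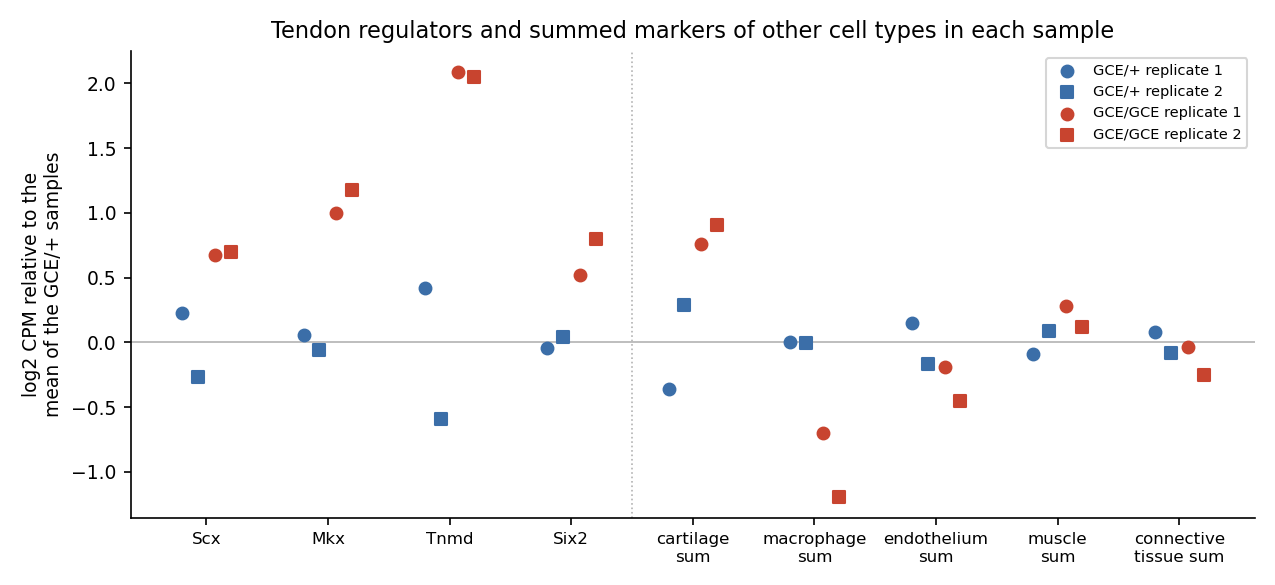
Log2 CPM relative to the mean of the 2 GCE/+ samples (vertical axis) for the 4 tendon regulators and for summed markers of other cell types, with 1 point per sample. Cartilage sums (1590 and 1751 CPM in homozygous cells) rise with the tendon genes and macrophage sums (209 and 149 CPM) go the other way. Of the GCE/+ replicates (blue), replicate 2 is higher for cartilage and replicate 1 is higher for *Scx* and *Tnmd*. The blue points of *Six2* and of *Mkx* lie close together.

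The calls of the 4 genes under each processing alternative are shown together. *Mkx* and *Tnmd* passed in every fit, *Six2* missed the threshold in 1 of them, without GCE/+ replicate 1, and *Scx* passed in some fits and not in others. The direction was higher in homozygous cells in each fit for each of the 4 genes.

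**Figure D5:**
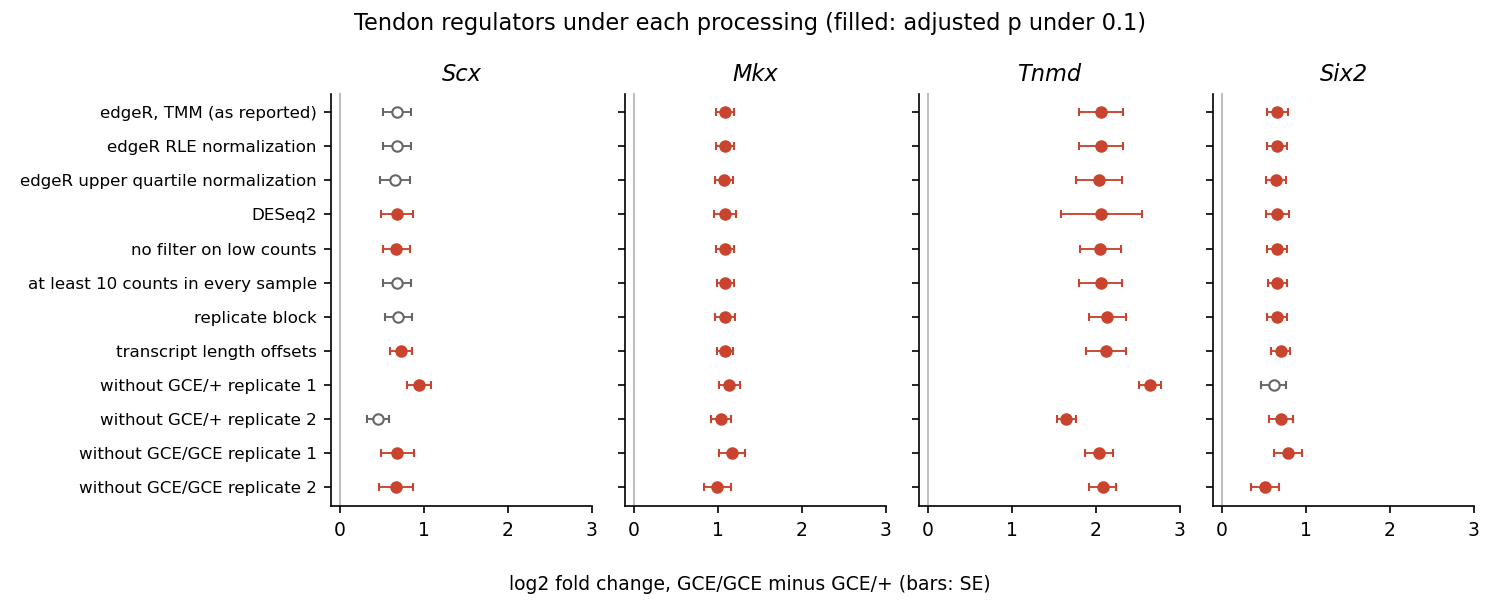
Log2 fold change, GCE/GCE minus GCE/+, with SE (bars) of each tendon regulator under the reported fit and 11 alternative fits (rows). Filled points passed an adjusted p of 0.1, and the estimates run from 0.46 to 0.94 for *Scx*, 0.99 to 1.17 for *Mkx*, 1.65 to 2.65 for *Tnmd* and 0.52 to 0.79 for *Six2*.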

How the data were processed

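RNA of GFP+ cells from E13.5 limbs was sequenced in 2 GCE/+ and 2 GCE/GCE embryos. The authors aligned paired-end reads of 50 bp with TopHat2 to mm9, guided by UCSC gene models, and HTSeq (intersection-strict) counted the fragments. They deposited these counts per gene symbol unnormalized. Genotype and replicate number came from the labels. Counts were filtered with filterByExpr, scaled by TMM and tested with edgeR 4.0.16 (R 4.3.3), by its two-sided quasi-likelihood test of GCE/GCE against GCE/+, with p-values adjusted by Benjamini-Hochberg over 15645 genes and a threshold of 0.1. SEs were derived from the F statistic. The study named DESeq2, which was an alternative here (1.42.0). CPM use TMM-scaled totals. Transcript lengths came from a GRCm38 annotation, which held 98.0% of the symbols, and no coordinates were converted. Low counts limit precision, and 3 counts were taken as the floor, which covers counting error only. On data simulated for this comparison (15645 genes, 200 changed, 3 runs), the edgeR fit recovered 86.7% of genes changed by 1 and 43.7% of those changed by 0.5 on the log2 scale, with 9.45% of calls false. Each simulated gene had the spread typical of its level. Genes that vary more, such as *Tnmd* in GCE/+ cells, were thus not represented, and these rates may be too favourable for them.

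The 4 genes and all lists were chosen with earlier results of these data known. Genes named in the text are the 4 tendon genes, Osr1 and Xist as checks, list genes past the threshold, the 3 genes of each list highest in mean CPM per kb, the 3 genes nearest in pattern to each tendon gene and defining markers. Exceptions are named in the text, and closest relatives and markers are given as context. Promoter windows of Scx and Mkx were not used here. 1 gene was left out of the lists and is not reported here, 2 listed symbols had no match and were not analysed here, and list genes that met none of these rules are given by counts only. RT-qPCR and chromatin results were not analysed here. Alternatives were RLE and upper quartile scaling, DESeq2, no filter, a replicate block, at least 10 counts per sample, offsets for transcript length, an adjusted p under 0.05 and leaving out each sample.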

Additional observations from a re-analysis of the deposited data

How the results depend on the processing

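The direction of *Scx*, *Mkx*, *Six2* and *Tnmd* held under all of the 12 alternatives, and the number of them past the threshold stayed between 2 and 4 (3 as reported). *Mkx* and *Tnmd* kept their calls throughout, with log2 fold changes from 0.99 to 1.17 and from 1.65 to 2.65 when samples were left out. *Scx* passed with DESeq2 (log2 fold change 0.68), no filter on low counts (0.68) and offsets for transcript length (0.73), and leaving out each sample gave 0.46 to 0.94. *Six2* was lost at an adjusted p under 0.05 (0.66) and without GCE/+ replicate 1, with 0.52 to 0.79 over samples left out. Genes past the threshold numbered 279, and 502 with DESeq2, 425 with no filter, 122 at an adjusted p under 0.05 and 197 to 984 when samples were left out, the most without GCE/+ replicate 2, where 21 list genes passed, and 696 without GCE/GCE replicate 1. Those in the relatives and tendon lists numbered 9, and 19 with DESeq2, 14 with no filter, 4 at an adjusted p under 0.05 and 8 to 21 when samples were left out. The cause of these moves was not tested. Where a GCE/+ or GCE/GCE sample was left out, the lone sample of its group was assumed to vary like the others. With the replicate number as a block, *Scx*, *Mkx*, *Tnmd* and *Six2* had log2 fold changes of 0.70, 1.09, 2.14 and 0.66, 280 genes and 10 list genes passed, and no call of the 4 genes changed. Nothing in the labels ties the numbers to a litter or batch, and deviations of same-numbered samples correlated at -0.004 over 11180 genes, so that the numbers were not taken to pair the samples. *Tgfb3* and *Tnc* were among the list genes that did not pass under the block. Log2 fold changes correlated with transcript length at rho 0.257 across genes, which are not independent replicates.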
